A study of Homo sapiens with 3 samples.

Results

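The genes of fatty acid oxidation and ketone body metabolism described here are 36 rows of a gene expression table with 21572 rows. They were chosen by symbol, for their known roles, but with earlier results of these data known. They comprise 6 genes of the carnitine shuttle, 15 genes of mitochondrial beta-oxidation, 5 of peroxisomal beta-oxidation, 3 of the electron transfer chain that serves the acyl-CoA dehydrogenases, BDH1 for ketone bodies, the nuclear receptor gene PPARA and 5 of its targets. RNA was sequenced from Hep-G2, an established human hepatoma cell line, and 3 libraries were made, all from cells at passage 21. The control cells, named sh_Neg in the labels, carried the shRNA SHC002, called a scramble in the series design. The other cells carried an shRNA against FTO, an RNA demethylase gene: TRCN0000255402 in sh#2, where the design states a weaker knockdown, and TRCN0000246247 in sh#7, where it states a stronger one. The labels used here do not say whether a line is a clone or a pool of cells.

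Each group held 1 library, so replicates check none of the differences below, no test could be run and an effect of FTO cannot be told apart from an effect of a line or a culture. FTO was listed at 9.02 FPKM in control cells, 5.29 FPKM with sh#2 and 2.55 FPKM with sh#7, the order that the labels give. FPKM was the unit taken for the authors' values, from their tools and from the values themselves. It scales fragments by transcript length and library size, so levels can be compared between genes. Between libraries an offset can remain: the median of all compared genes in sh#7 was 0.16 log2 units above the control. Small differences between libraries therefore depend on the scaling chosen. Depth was estimated from the level of single fragments at 43200000 fragments for the control, 43900000 for sh#2 and 42700000 for sh#7. All 10 hepatocyte markers looked up were present, with a summed level of 20628 FPKM in control cells, 16000 FPKM with sh#2 and 9119 FPKM with sh#7. Of 5 endothelial markers all were under 1 FPKM in every library, and of 6 blood cell markers 5 were, with PTPRC, CD3E and HBB at 0 and CD68 at 39.3, 30.8 and 23.3 FPKM. Of 7 fibroblast markers 5 were under 1 FPKM, 4 of them at 0, while ACTA2 was at 40.2, 33.6 and 51.5 FPKM and PDGFRB at 3.76, 1.69 and 0.616 FPKM. Of 5 bile duct markers KRT19 was at 144, 243 and 324 FPKM and EPCAM at 143, 159 and 211 FPKM. SOX9 was at 77.3, 69.5 and 59.1 FPKM, KRT7 at 0.0141, 0.0280 and 1.57 FPKM, and CFTR at 0 in every library. Of 5 muscle markers 4 were under 1 FPKM, and CKM was at 1.21, 1.01 and 11.2 FPKM. Whether these marker differences play a part in the values below was not tested, and in RNA from whole cultures fewer cells of a kind and less RNA per cell cannot be told apart.

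Mitochondria burn fatty acids by beta-oxidation, a spiral in which an acyl-CoA is dehydrogenated, hydrated, dehydrogenated again and cleaved to release acetyl-CoA. Long chains enter only as carnitine esters, which CPT1 enzymes make at the outer membrane, SLC25A20 carries across the inner membrane and CPT2 turns back into acyl-CoA. Very long and branched chains are shortened in peroxisomes first. In the fasted liver the acetyl-CoA feeds ketone body synthesis, and the fatty acid receptor PPARA switches on much of the pathway.

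Sequences are shown for some of the members, for the reasons given with each. The promoter window of CPT1A, the member past 2-fold in each comparison of the deposited values, and that of HADHB, which faces the start of its partner HADHA, are RefSeq windows on GRCh38.p14, from 250 bases before to 50 bases after the annotated start. The CPT1A window is chr11:68844228-68844527 on the minus strand, with its 50 transcribed bases in capitals. The HADHB window is chr2:26244689-26244988 on the plus strand, and its capitals mark the 194 bases that also lie in the HADHA window on the minus strand.
CPT1A: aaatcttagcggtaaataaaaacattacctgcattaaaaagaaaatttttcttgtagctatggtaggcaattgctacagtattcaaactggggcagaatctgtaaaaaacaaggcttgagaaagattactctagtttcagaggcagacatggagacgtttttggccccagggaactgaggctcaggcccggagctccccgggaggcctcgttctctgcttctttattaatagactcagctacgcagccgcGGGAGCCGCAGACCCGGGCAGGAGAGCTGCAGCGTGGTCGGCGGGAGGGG
HADHB: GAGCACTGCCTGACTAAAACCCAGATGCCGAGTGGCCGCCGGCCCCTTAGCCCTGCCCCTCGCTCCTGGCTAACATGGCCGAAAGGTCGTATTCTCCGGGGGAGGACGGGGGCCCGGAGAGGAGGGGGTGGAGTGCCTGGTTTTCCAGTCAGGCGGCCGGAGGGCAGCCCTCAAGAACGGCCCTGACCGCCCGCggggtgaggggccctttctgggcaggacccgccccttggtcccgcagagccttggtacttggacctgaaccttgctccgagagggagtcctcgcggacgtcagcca
The HADHA and HADHB starts are 307 bases apart. Windows were found for 28 of the 36 members, 39 windows in all. The GC box letters GGGCGG, read on both strands, were in 30 of these 39 windows (76.9%) and in 45% of all 35116 windows. The median GC content was 66.3% in the members' windows and 58.7% in all windows. The CPT1A window, at 50% GC, had no GGGCGG. The element bound by PPARA with its partner RXRA repeats the half-site AGGTCA after a gap of 1 base. With up to 2 mismatches in the half-sites it was in 1 of the 39 windows (2.56%) and in 2.97% of all windows. That match, AGGTGAAAGGGCA, lies at chr18:49813597-49813609 and begins 76 bases before the start of ACAA2, the last enzyme of the mitochondrial spiral. A match of letters is a description and says nothing of binding.

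Expression of the pathway in the control was high and uneven. Its members added up to 0.529% of the FPKM of all genes for the control, 0.473% for sh#2 and 0.462% for sh#7. ETFB, the beta subunit of the electron transfer flavoprotein, made up 36.7% of the members' sum in the control, and without it the shares were 0.335%, 0.335% and 0.313%. ETFB thus held nearly all of the lower total in sh#2 and more than the rest together in sh#7. ETFB was the 73rd highest of all genes in the control.

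Fold changes were computed for members that averaged 1 FPKM or more across the 3 libraries, as differences of log2(FPKM + 1). That filter kept 33 of the 36 members and 11069 genes in all. The 3 members below it were CPT1C, PDK4 and FGF21. The neuronal CPT1 isoform gene CPT1C was at 0.0498 FPKM in control cells, 0.0162 FPKM with sh#2 and 0.0169 FPKM with sh#7. PDK4, a kinase that shuts pyruvate out of oxidation, was at 0.00617, 0.00593 and 0.00622 FPKM, which corresponds to about 1 fragment in each library. FGF21, the fasting hormone gene, was at 0.0312 FPKM in the control, listed at 0 in sh#2 and at 0.0313 FPKM in sh#7, or about 2 estimated fragments where it was seen. No difference between libraries was detectable for these genes at this depth.

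**Figure D1:**
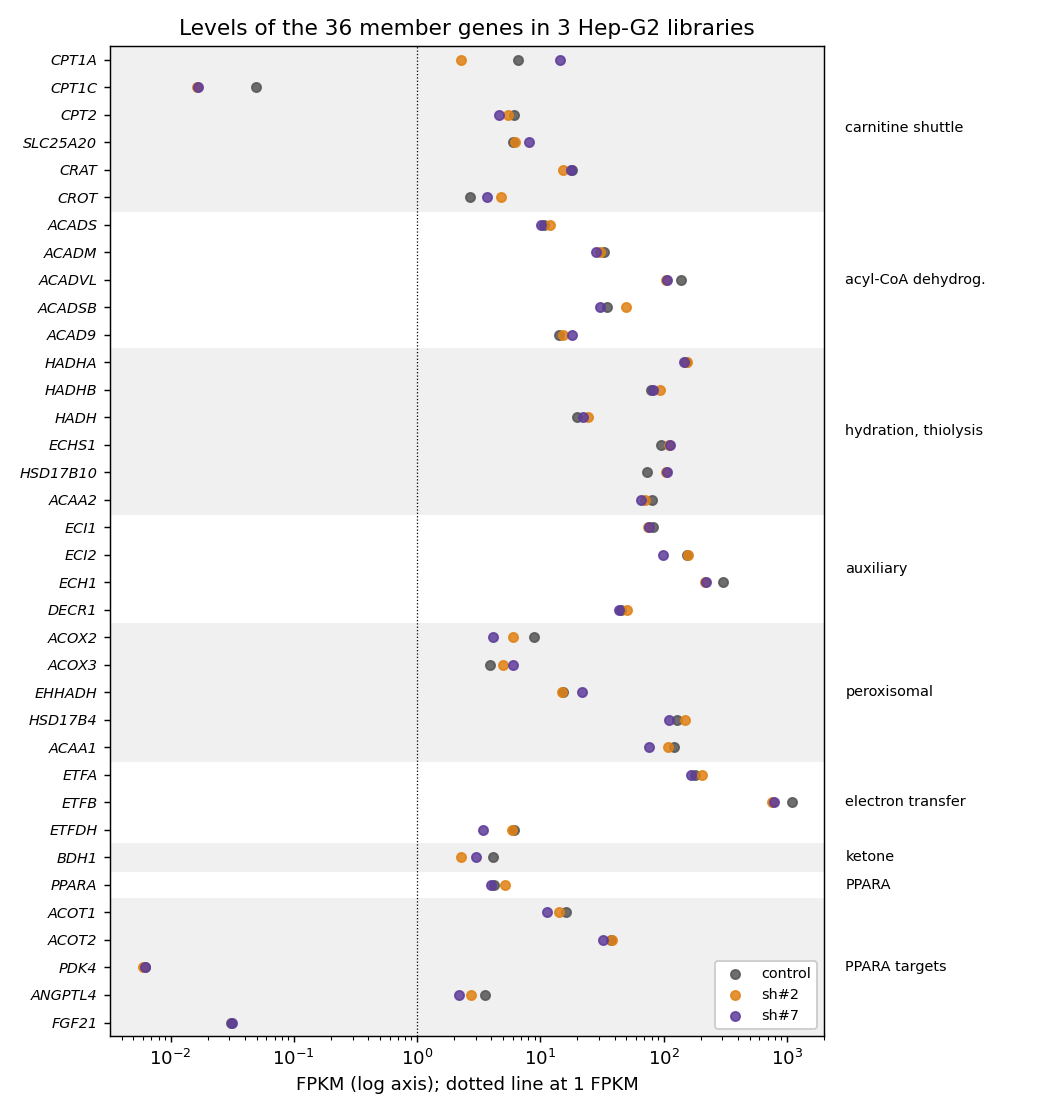
Level of each of the 36 members (rows, grouped by role) in the control, sh#2 and sh#7 libraries, 1 point per library, in FPKM on a log axis. Most members lie within a narrow range across libraries, CPT1A spreads from 2.27 to 14.3 FPKM, and CPT1C, PDK4 and FGF21 lie below the dotted line at 1 FPKM (the 0 of FGF21 in sh#2 is not drawn).

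CPT1A had the largest difference of all compared members in each of the 3 comparisons on the deposited values. Under both other scalings ACOX2 took that place in sh#7 against control, at -1.11 and -1.06, with CPT1A at 0.87 and 0.92. This gene encodes the liver carnitine palmitoyltransferase at the entry of the shuttle, and it was at 6.54 FPKM in control cells, 2.27 FPKM with sh#2 and 14.3 FPKM with sh#7. The lines thus lay on opposite sides of the control. It reached 34.7% of the control level in sh#2 (95% counting interval 31.3 to 38.3) and 219% in sh#7 (206 to 233), and sh#7 was 6.32-fold above sh#2 (5.76 to 6.95). The intervals are exact binomial (Clopper-Pearson) ones on estimated fragments, 1477 for the control, 521 for sh#2 and 3201 for sh#7. They cover counting error only, here and below. On the log2 scale the difference was -1.21 in sh#2, 1.02 in sh#7 and 2.23 between the lines. In the direct comparison only 11 of the 11069 genes, CPT1A included, were as far above sh#2 in sh#7. Its order, sh#2 lowest and sh#7 highest, is not that of FTO.

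CPT1A was the only compared member past 2-fold on the log2(FPKM + 1) scale in any comparison. In sh#7 against control this was 1 of 33 members higher, where 2.35% of all compared genes were, and 0 lower, where 2.48% were. In sh#2 it was 0 members higher, where 0.506% of all genes were, and 1 lower, where 0.723% were. In sh#7 against sh#2 it was 1 member higher, where 1.45% of all genes were, and 0 lower, where 1.52% were. With so few members these shares do not set the list apart from other genes. The call in sh#7 was close to the threshold: the difference was 0.87 with median-of-ratios scaling and 0.92 when libraries were scaled to their upper quartiles, both under 2-fold. The next member by size was ACOX2, at -0.96 in sh#7. The call in sh#2 and the one between the lines held under each setting tried.

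The isoforms of CPT1 differed in pattern. CPT1B, the muscle isoform gene and not a member, was at 2.18 FPKM in control cells, 2.93 FPKM with sh#2 and 3.59 FPKM with sh#7, highest in the line with the least FTO. CPT1A made up 74.6% of the summed CPT1 level for the control, 43.5% for sh#2 and 79.9% for sh#7. In sh#2 CPT1B was thus the higher isoform gene, at 56.2% of the sum. The summed CPT1 level was 8.76 FPKM in control cells, 5.21 FPKM with sh#2 and 17.9 FPKM with sh#7. A read-through gene, CHKB-CPT1B, is listed separately at 0.242 FPKM in the control and close to 0 in both lines, and how reads were divided between it and CPT1B is uncertain.

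Downstream of CPT1A the shuttle moved less. CPT2, the inner membrane enzyme, was at 6.10, 5.42 and 4.66 FPKM across control, sh#2 and sh#7 cells. SLC25A20, the carnitine-acylcarnitine carrier, was at 6.04, 6.28 and 8.08 FPKM. The ratio of CPT1A to CPT2 was 1.07 for the control, 0.418 for sh#2 and 3.08 for sh#7, so the outer membrane enzyme gene was below the inner one in sh#2 and above it in sh#7. SLC25A20 was highest in sh#7 at 134% of the control, while its small excess in sh#2 changed sign under both other scalings. CRAT, which handles short-chain acyl groups, was at 18.2, 15.3 and 17.7 FPKM. CROT, the peroxisomal carnitine octanoyltransferase, was at 2.70, 4.79 and 3.69 FPKM, lowest in the control. CROT reached 177% of the control in sh#2 (156 to 201), the only member past 1.5-fold higher there.

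**Figure D2:**
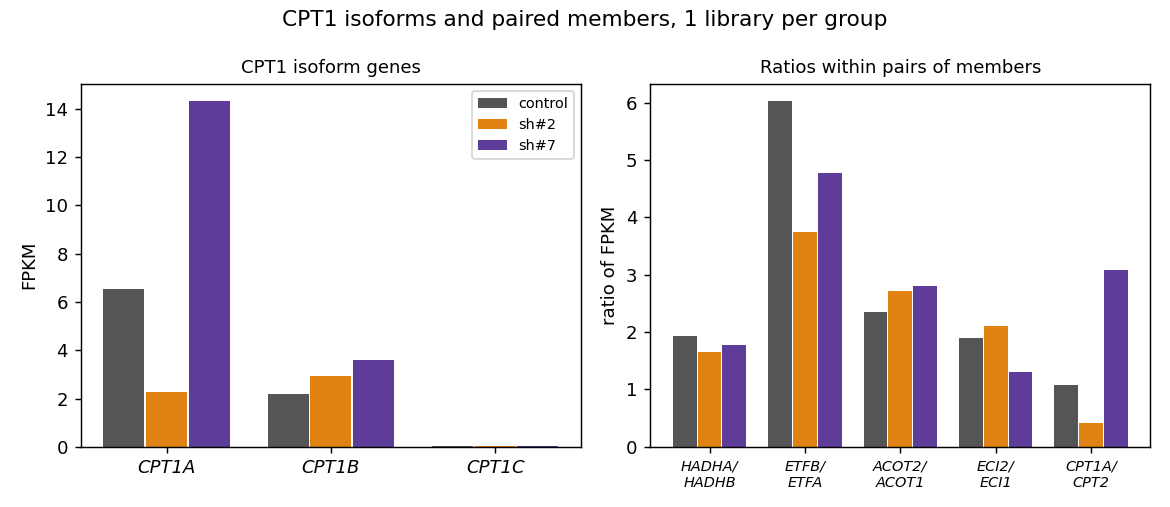
Left, FPKM of the CPT1 isoform genes in each library. Right, ratio of FPKM within 5 pairs of members in each library. Bars are single libraries with no error, and they show CPT1A below CPT1B only in sh#2 and the CPT1A to CPT2 ratio running from 0.418 in sh#2 to 3.08 in sh#7.

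The acyl-CoA dehydrogenases start each turn of the spiral, and each prefers a chain length. ACADVL, for very long chains, was at 137 FPKM in control cells, 104 FPKM with sh#2 and 107 FPKM with sh#7. It was lower in both lines by almost the same amount, at 75.7% (73.8 to 77.7) and 77.5% (75.6 to 79.5) of the control. ACADM, for medium chains, was at 32.7, 30.5 and 28.5 FPKM, and ACADS, for short chains, at 10.8, 12 and 10.2 FPKM. Both stayed between 87.2% and 111% of the control. ACADSB, for short branched chains, was at 35 FPKM in control cells, 49.4 FPKM with sh#2 and 30.7 FPKM with sh#7. It was the highest in sh#2, and sh#7 was at 62.3% of sh#2 (60.5 to 64.1). ACAD9, best known as an assembly factor of respiratory complex I, was at 14.1, 15.3 and 18.2 FPKM, highest in sh#7.

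The 6 genes of the later steps all stayed within 1.5-fold of the control in both lines. HADHA and HADHB encode the alpha and beta subunits of the mitochondrial trifunctional protein, which carries out these steps for long chains. HADHA was at 154 FPKM in control cells, 156 FPKM with sh#2 and 147 FPKM with sh#7, and HADHB was at 79.8, 94.3 and 82.8 FPKM. HADHA stayed between 95.9% and 102% of the control, and HADHB between 104% and 118%. Differences this small depend on scaling: HADHB in sh#7 and HADHA in sh#2 lay below the control under both other scalings. The ratio of the subunit genes, whose promoter windows overlap, was 1.92 for the control, 1.66 for sh#2 and 1.78 for sh#7.

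For shorter chains the hydratase gene ECHS1 was at 95.5, 110.5 and 114 FPKM, and the dehydrogenase gene HADH at 19.8, 24.2 and 22.3 FPKM. Both were higher than the control in each line. HSD17B10, which acts on branched short chains and is also a subunit of mitochondrial RNase P, was at 74.1 FPKM in control cells, 105 FPKM with sh#2 and 106 FPKM with sh#7. It was the most changed of these 6 genes, at 141% of the control in sh#2 (135 to 148) and 143% in sh#7 (137 to 150.1). The thiolase gene ACAA2 was the only one lower in each line, at 81.3, 70.6 and 65.3 FPKM. The summed level of the 6 genes was 504 FPKM in control cells, 560.5 FPKM with sh#2 and 537 FPKM with sh#7.

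Unsaturated chains need auxiliary enzymes that move or reduce their double bonds. ECI2, an enoyl-CoA isomerase found in peroxisomes and mitochondria, was at 155 FPKM in control cells, 158 FPKM with sh#2 and 98.7 FPKM with sh#7. It was close to the control in sh#2, where its sign depends on scaling, and at 63.8% of it in sh#7 (61.9 to 65.8). The mitochondrial isomerase gene ECI1 was at 81.8, 74.6 and 76.0 FPKM, at least 91.2% of the control in each line. The ratio of ECI2 to ECI1 was 1.89 for the control, 2.11 for sh#2 and 1.30 for sh#7. ECH1, a dienoyl-CoA isomerase, was at 304 FPKM in control cells, 218 FPKM with sh#2 and 219 FPKM with sh#7, lower in both lines by about the same amount. The reductase gene DECR1 was at 45, 50.6 and 43.1 FPKM. The 4 genes summed to 586 FPKM for the control, 501 FPKM for sh#2 and 437 FPKM for sh#7, and each lay below the median of all genes in sh#7 against control.

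**Figure D3:**
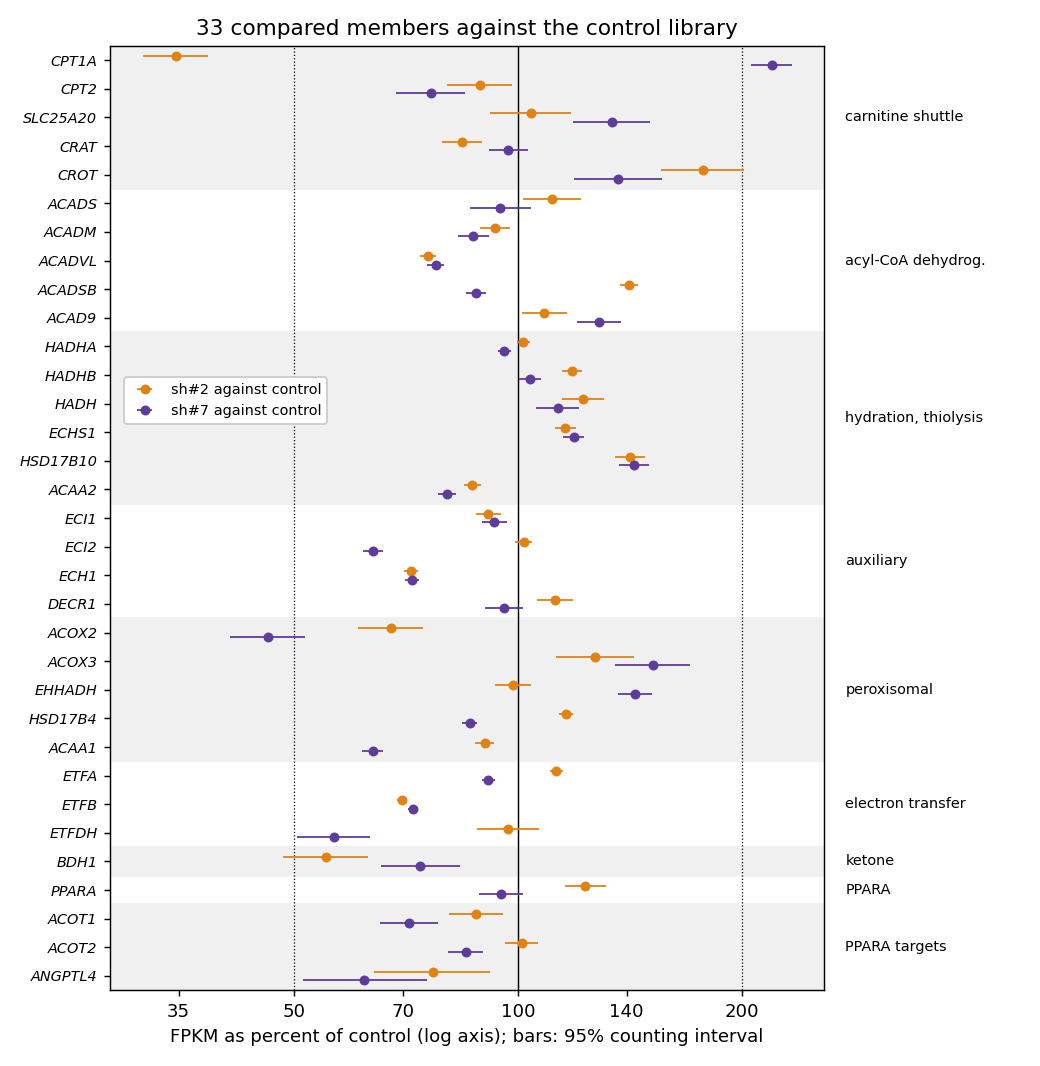
FPKM of the 33 compared members (rows, grouped by role) as a percent of the control library, on a log axis, for sh#2 and sh#7. Bars are 95% counting intervals and hold no spread between cultures; the dotted lines mark 2-fold, which CPT1A passes on opposite sides and ACOX2 passes in sh#7 at 46.1% of the control.

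The peroxisomal genes went in both directions in sh#7. Acyl-CoA oxidases make the first step there. ACOX2, the oxidase for branched chains and bile acid precursors, was at 8.95 FPKM in control cells, 6.03 FPKM with sh#2 and 4.13 FPKM with sh#7. This was 67.4% of the control level in sh#2 (60.9 to 74.6) and 46.1% in sh#7 (41.0 to 51.7). By FPKM alone it was therefore past 2-fold lower in sh#7, and the added 1 in log2(FPKM + 1) held it at -0.96. With a pseudocount of 0.1 it was at -1.10, and the other scalings put it at -1.11 and -1.06.

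ACOX3, a further branched-chain oxidase, went the other way, at 3.94, 5.01 and 5.98 FPKM. It reached 152% of the control in sh#7 (135 to 170.5). The next steps are shared by EHHADH and HSD17B4, the bifunctional enzymes of the peroxisome. EHHADH was at 15.3 FPKM in control cells, 15.1 FPKM with sh#2 and 22.0 FPKM with sh#7, or 144% of the control in sh#7 (137 to 151). HSD17B4, whose substrates include branched chains, was at 128, 148 and 110.1 FPKM. The pair thus lay on opposite sides of the control in sh#7. ACAA1, the peroxisomal thiolase gene, was at 121, 109 and 76.9 FPKM, and it was at 63.8% of the control in sh#7 (61.8 to 65.9).

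Electrons from the acyl-CoA dehydrogenases pass to the electron transfer flavoprotein, built of ETFA and ETFB, and from it to ETFDH in the inner membrane. ETFA was at 181.5 FPKM in control cells, 204 FPKM with sh#2 and 166 FPKM with sh#7. ETFB was at 1094 FPKM in control cells, 764 FPKM with sh#2 and 792 FPKM with sh#7, highest in the control. Although the subunits pair in the protein, the ratio of ETFB to ETFA was 6.03 for the control, 3.74 for sh#2 and 4.78 for sh#7. ETFDH was at 6.12 FPKM in control cells, 5.93 FPKM with sh#2 and 3.46 FPKM with sh#7. It was near the control in sh#2 and at 56.6% of it in sh#7 (50.6 to 63.4), and the ratio of ETFA to ETFDH was 29.7, 34.5 and 47.9.

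At 1.5-fold, a wider net than the 2-fold rule, a few more members entered. In sh#7 against control CPT1A was again the only member higher on the log2(FPKM + 1) scale, where 9.61% of all genes were. The members lower there were ACAA1, ACOX2, ECI2 and ETFDH, 4 of 33 (12.1%), where 6.18% of all genes were. By FPKM alone ACOX3, at 152% of the control, was also past 1.5-fold higher, and ANGPTL4, at 62.2%, lower. The added 1 held ACOX3 at 0.50 and ANGPTL4 at -0.50. In sh#2 CROT was higher, where 2.67% of all genes were, and BDH1 and CPT1A were lower, 2 of 33 (6.06%), where 2.72% were. In sh#7 against sh#2 CPT1A was higher, where 5.14% of all genes were, and ACADSB, ECI2 and ETFDH were lower, 3 of 33 (9.09%), where 4.55% were. These counts rest on 1 to 4 genes and set nothing apart.

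**Figure D4:**
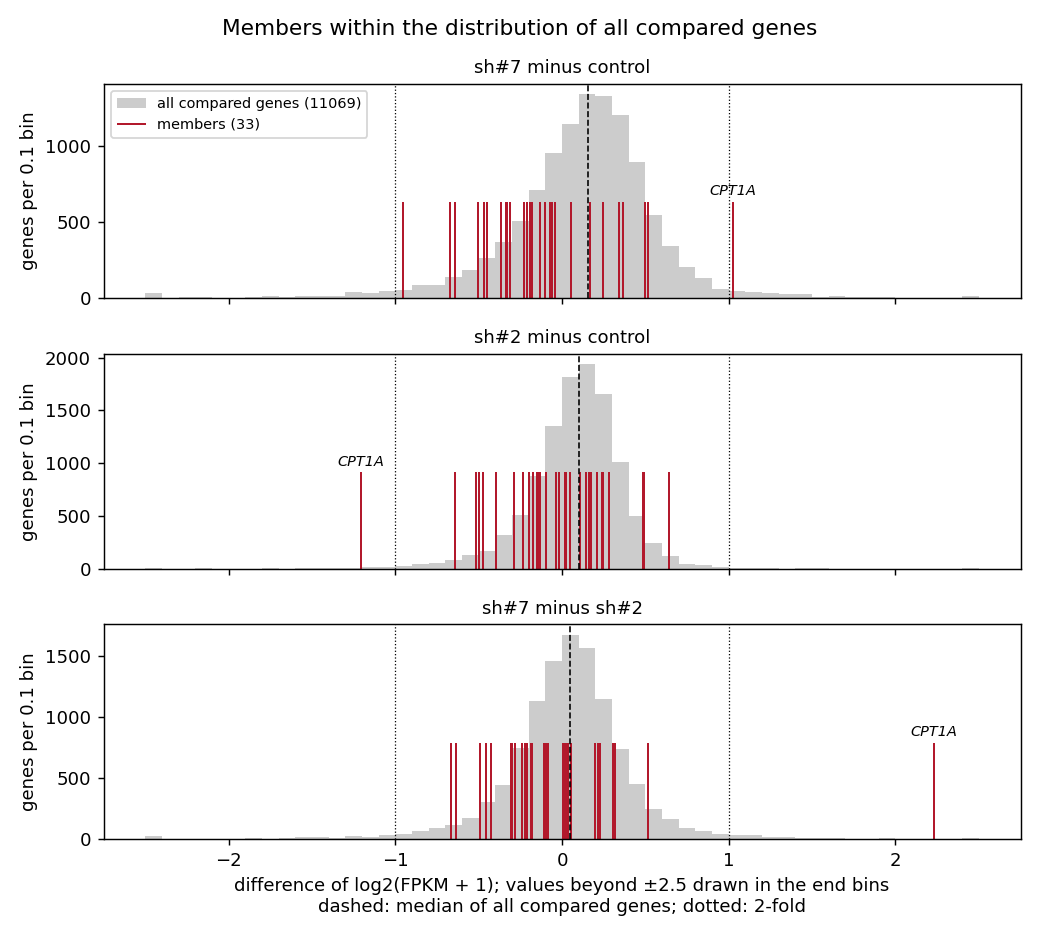
Differences of log2(FPKM + 1) for all 11069 compared genes (grey, genes per bin of 0.1) with the 33 compared members as red lines, for each of the 3 comparisons. The dashed line is the median of all genes, and 24 of 33 members lie below it in sh#7 minus control, while CPT1A lies at 1.02, -1.21 and 2.23.

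The compared members as a whole lay somewhat below the middle of all genes in sh#7. Their median difference from the control was -0.13, where that of all compared genes was 0.16, which puts the members at -0.29 relative to all genes. In all 24 of the 33 lay below the median of all genes and 9 above it. In sh#2 the members' median was 0.02 and that of all genes 0.10, a relative value of -0.09, with 20 members below and 13 above. Between the lines the relative median was -0.16, with 25 below and 8 above. Since 1 control library served both lines, these values are not independent of each other. The interquartile range of members was 0.53 log2 units in sh#7 and 0.41 in sh#2, and that of all genes 0.46 and 0.31.

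Ketone body metabolism was represented by BDH1, the mitochondrial 3-hydroxybutyrate dehydrogenase, at 4.10 FPKM in control cells, 2.26 FPKM with sh#2 and 3.03 FPKM with sh#7. It was highest in the control, at 55.2% of it in sh#2 (48.3 to 63.0) and 73.9% in sh#7 (65.5 to 83.6). ACAT1, a mitochondrial thiolase that works in both directions, was at 87.0, 83.1 and 73.9 FPKM. OXCT1, which tissues other than liver use to burn ketone bodies, was at 0.496, 0.532 and 0.391 FPKM.

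PPARA itself was at 4.20 FPKM in control cells, 5.17 FPKM with sh#2 and 3.98 FPKM with sh#7, or 123% (116 to 131) and 94.9% (88.8 to 102) of the control. It was highest in sh#2, the line in which CPT1A was lowest. Its partner gene RXRA was at 18.4, 20.7 and 24.2 FPKM, and the coactivator gene PPARGC1A at 5.60, 3.15 and 2.68 FPKM, with both lines below the control. Among the targets, ANGPTL4, a secreted inhibitor of lipoprotein lipase, was at 3.54, 2.72 and 2.2 FPKM. Its level in sh#7 was 62.2% of the control (51.4 to 75.5). ANGPTL4, ACOT1 and ACOT2, the compared members of the target group, all lay below the median of all genes in each comparison. The readings of ACOT1 and ACOT2 may not be separate, as described below. Genes outside this group that PPARA can switch on went both ways in sh#7. Among pathway enzymes EHHADH was at 144% of the control and ACAA1 at 63.8%. Of the genes looked up as further targets or relatives of targets, ACSL1 alone was past 2-fold higher, at 253%. Those past 2-fold lower were PLIN2 at 40.6%, PDK1 at 36.8% and FABP1 at 3.37%.

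ACOT1 and ACOT2 encode acyl-CoA thioesterases of the cytosol and the mitochondria, and their copies are so alike that reads can be hard to assign. ACOT1 was at 16.0, 14.1 and 11.4 FPKM and ACOT2 at 37.8, 38.2 and 32.1 FPKM across control, sh#2 and sh#7 cells. Both were lowest in sh#7, and the ratio of ACOT2 to ACOT1 was 2.36, 2.71 and 2.81. In GENCODE 29 on GRCh38 they lie on the plus strand of chromosome 14, ACOT1 from 73537114 to 73543794 and ACOT2 from 73567620 to 73575658. Over the 1263 coding bases of ACOT1, ACOT2 differs at 13 positions (99% identity), and the longest identical run is 466 bases. ACOT2 has a further 186 coding bases at its start. The stretches below, of 120 bases each, hold 5 of the 13 differences, in capitals, and are shown because they are the densest in differences. They are bases 358 to 477 of the ACOT1 coding sequence and 544 to 663 of that of ACOT2.
ACOT1: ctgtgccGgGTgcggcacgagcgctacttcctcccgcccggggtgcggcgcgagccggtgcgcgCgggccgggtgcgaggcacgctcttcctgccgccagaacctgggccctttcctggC
ACOT2: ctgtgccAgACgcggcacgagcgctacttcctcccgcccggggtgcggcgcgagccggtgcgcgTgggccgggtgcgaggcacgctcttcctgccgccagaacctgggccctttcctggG
Of the words of 50 bases in the ACOT1 transcript, 54.6% also occur in ACOT2, so the split between the genes is uncertain. The same count was under 10% for 31 of the 36 members. Besides ACOT1 and ACOT2 the others were ETFB at 34.0%, ECH1 at 25.9% and ACAA2 at 20.6%, where the shared words lie in other annotated genes, among them AC008750.8, AC008982.1 and AC090227.1. The sources used here do not say how the authors' counting treated such overlaps.

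A list of 70 other genes of the pathway and its control, made with earlier results of these data known, was looked up as well. Of these genes 55 passed the filter. In sh#7 against control 1 of these was past 2-fold higher (1.82%, where 2.35% of all genes were) and 5 were lower (9.09%, where 2.48% were). In sh#2 1 was higher and 1 lower (1.82% each, where 0.506% and 0.723% of all genes were). Between the lines 0 were higher, where 1.45% of all genes were, and 3 were lower (5.45%, where 1.52% were). ACSL1, a long-chain acyl-CoA synthetase that supplies CPT1A with its substrate, was at 10.5, 25.9 and 26.5 FPKM. It was higher in both lines by the same amount, unlike CPT1A. FABP1, the liver fatty acid binding protein, was at 6167, 2415 and 208 FPKM.

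The other genes lower in sh#7 were PPARG, CREB3L3, PDK1 and PLIN2. PPARG, a relative of PPARA better known from fat cells, was at 20.5, 15.2 and 9.16 FPKM. CREB3L3, a liver transcription factor of the fasting response, was at 8.94, 7.30 and 3.10 FPKM. PDK1, a kinase of the same family as PDK4, was at 17.0, 10.3 and 6.25 FPKM. PLIN2, which coats lipid droplets, was at 331, 193 and 134 FPKM. NADK2, the mitochondrial NAD kinase that helps supply DECR1 with NADPH, is listed as NADKD1 and was at 14, 19 and 7.82 FPKM. It was past 2-fold lower in sh#7 than in sh#2.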

How the data were processed

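RNA was measured in 3 libraries, 1 per group, and the groups were taken from the sample titles. The authors deposited 1 table of FPKM values by gene symbol. The build was hg19 and the tools were Cufflinks 2.2.1, HTSeq and STAR 2.4.0j, per the submitters' processing notes, but the order and role of each tool are not stated there. The unit was read from the tool and the values, since the table does not name it.

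Differences are log2(FPKM + 1) of 1 library minus another, for genes averaging 1 FPKM or more, counted at 2-fold and 1.5-fold, with no test. The pseudocount of 1 understates changes of low genes. Estimated fragments are FPKM times a GENCODE 29 transcript length times depth. Depth was read from the lowest step of genes with a single transcript longer than 1500 nt. Alternatives were a pseudocount of 0.1, a minimum mean of 5, no filter, median-of-ratios and upper-quartile scaling, and 1.5-fold. Median-of-ratios scaling moved the median of all genes in sh#7 against control from 0.16 to 0.003.

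The named genes were FTO, all members, 8 fixed other pathway genes and those past 2-fold, of which some are not reported here. The members and lists were chosen with earlier results of these data known. Calculations were tested on simulated data. Promoter windows came from RefSeq on GRCh38.p14, another build than hg19. Python 3.11.15, pandas 2.3.3 and scipy 1.17.1 were used.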

Additional observations from a re-analysis of the deposited data

Results flagged for a closer look

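CPT1A differed from the control past 2-fold in opposite directions in the knockdown lines, at 1.02 in sh#7 and -1.21 in sh#2. The value in sh#7 was under 2-fold with both other scalings, at 0.87 and 0.92, and kept its sign. The value in sh#7 was 2.23 above that in sh#2 on the log2(FPKM + 1) scale. With 1 library per line this difference was not tested.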

How the results depend on the processing

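No paired analysis was possible because there is a single library in every group, and none could be left out. The relative median of members kept its sign in all 3 comparisons under every alternative run. Scaling moves the median of members and that of all genes almost alike, so under both scalings this sign could hardly change. In sh#7 against control the relative median went from -0.29 to -0.088 with no filter, where genes at 0 pull the median of all genes to 0. In sh#2 against control it went from -0.09 to -0.01 with no filter. The 1 member higher in sh#7 than control became 0 under both scalings. The 0 lower there became 1, ACOX2, with a pseudocount of 0.1 and under both scalings. At 1.5-fold on the log2(FPKM + 1) scale 4 members were lower in sh#7. In sh#2 1 was higher and 2 were lower, and 3 were lower in sh#7 against sh#2. The share of higher genes among all past 2-fold in sh#7 was 48.6%, which became 34.2% by median-of-ratios scaling and 39.1% by upper quartiles, and in sh#2 41.2% became 30.7% and 32.2%. Among members, scaling turned the sign of small differences for 1 gene in sh#7 (HADHB) and for up to 5 in sh#2 (ACAD9, ACOT2, ECI2, HADHA and SLC25A20), and for up to 6 in sh#7 against sh#2 (ACADVL, ECH1, ECHS1, ECI1, ETFB and HSD17B10). Of 1284 values of single genes under an alternative, 1027 stayed within their counting interval and 257 moved past it. A minimum mean of 5 and no filter leave a single gene's value as it is, so those values count as staying. Under median-of-ratios scaling 59 values of members moved and 40 stayed, and under upper-quartile scaling 42 moved and 57 stayed. Scaling shifts the genes of a comparison almost alike. This split therefore follows the width of each counting interval and does not show how firm a difference is. Of the differences past 2-fold 0 changed sign, which these alternatives could hardly bring about.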

Other observations

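Genes that stand beside the pathway were also looked up, and those named here were chosen after their values were seen. The receptor genes for the gut hormone FGF19 were higher in both lines. KLB, the co-receptor, was at 12.3, 22.6 and 24.9 FPKM across control, sh#2 and sh#7 cells, and FGFR4 at 100.2, 132 and 180.3 FPKM. SLC22A5, which imports carnitine, was at 2.05, 2.90 and 3.72 FPKM. ABCD3, which imports acyl-CoA into peroxisomes, was at 50.6, 65.6 and 73.6 FPKM. PHYH and HSDL2, a peroxisomal hydroxylase of branched chains and a peroxisomal dehydrogenase-like protein, went the other way in sh#7, at 27.9, 26.4 and 16.7 FPKM and at 41.2, 35.3 and 22.0 FPKM. LYRM5, an older symbol of ETFRF1, a regulator of the electron transfer flavoprotein, was at 2.88, 2.69 and 1.48 FPKM. The fatty acid hydroxylase genes CYP4A11 and CYP4A22, known PPARA targets, were listed at 0 in all 3 libraries.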
